A study of Mus musculus with 62 samples.

Results

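At 3 weeks post-induction (w.p.i.), 2756 autosomal sites in haematopoietic stem and progenitor cells (HSPCs) combined a gain of the histone variant H3.3 with a loss of H3K9me3 after deletion of Daxx. They were chosen by measured values: each is a site of the H3.3 comparison in which both Daxx-KO libraries were above both WT libraries, and each shares 1 bp or more with a site of the H3K9me3 comparison in which both Daxx-KO libraries were below both WT libraries. The H3.3 comparison listed 141512 autosomal sites, of which 139275 had non-overlapping groups, and 81712 of these (58.7%) were gains. The H3K9me3 comparison listed 57306 autosomal sites, of which 57079 had non-overlapping groups, and 12058 (21.1%) were losses. The 2756 dual-change sites were therefore 3.37% of the H3.3 gains, and the 2638 H3K9me3 losses beneath them were 21.9% of the H3K9me3 losses. Since the direction of both marks at 3 w.p.i. defined the sites, those values are given as a description and were not tested.

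CUT&Tag, in which an antibody directs a transposase to cut and tag the DNA at its target, was run on lineage-negative, c-Kit+ bone marrow cells enriched by magnetic beads from C57BL/6 mice. Mice labelled Daxx F/F Cre +/- are called Daxx-KO, those labelled Daxx +/+ Cre +/- are called WT, so that both groups carried Cre, and DKO mice were Daxx F/F with Pu.1 F/F in addition, also Cre +/-. The labels do not name the Cre transgene. The methods describe an Mx1Cre, which interferon induces in blood and other interferon-responsive cells, activated by pI:pC, and a ubiquitous, tamoxifen-induced Rosa26CreERT2, so the transgene of each mouse is not certain. Mice of both sexes were used and were usually 5–11 weeks old at treatment. Each group had 2 libraries per antibody at 3 and 24 w.p.i. and 3 at 8 w.p.i. The Daxx-KO mice profiled for H3.3 at 3 w.p.i. were not those profiled for H3K9me3, so the 2 changes at a site were not measured in the same mutant animals. By mouse number, WT replicate 2 of both antibodies was 1 mouse, and the Pu.1 libraries at 3 w.p.i. shared both Daxx-KO mice and WT replicate 2 with H3.3. WT replicate 1 of H3.3 and of Pu.1 carries no mouse number, so the labels do not give its animal. All values are read counts normalized by the authors with diffReps. The tables list only places that passed the authors' window test, so a place without a listed site cannot be called unchanged. With 2 libraries against 2, the smallest two-sided exact permutation p at a site is 0.33, and with 3 against 3 it is 0.100, so a permutation test of a single site cannot pass 0.05, and no other test of single sites was run on these preselected tables. A gain or a loss below therefore means that the libraries of the groups did not overlap.

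H3.3 is the histone H3 variant that cells can assemble into chromatin outside of DNA replication. Daxx is a chaperone that, together with Atrx, places H3.3 at heterochromatin, including telomeres and endogenous retroviruses, while the Hira complex serves active genes. H3K9me3 is the mark of constitutive heterochromatin, and at retroviral repeats it is written by Setdb1, brought there by Trim28 and sequence-specific zinc-finger proteins. Pu.1 is the ETS-family transcription factor that directs myeloid differentiation.

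Most of the dual-change sites lay in repeated DNA, and the sequences found in the largest numbers of them are shown here because several results differ between them. Each site was cut into 50-base words and the copies of every word were counted on both strands of the 19 autosomes. At least 50% of the words were repeated in 2058 dual-change sites (74.7%, 95% Wilson interval 73.0 to 76.3), compared with 10.6% (10.4 to 10.8) of the other H3.3 gains and 35.9% (35 to 36.9) of the other H3K9me3 losses. Aligned with each other, 2073 sites (75.2%) shared at least 270 bp at 90% identity or more with another site of the set. A total of 10 stretches of 300 bp accounted for 1280 sites (46.4%), and the first 5 accounted for 1015 (36.8%). No repeat annotation was used, so these stretches are named core 1 to core 10 rather than by repeat family. The first 5 are printed 5′ to 3′ on the plus strand of mm10, with CpG dinucleotides in capitals. Core 1 was taken from chr5:69123051-69123350, in an intron of Kctd8, core 2 from chr6:46684151-46684450, in an intron of Cntnap2, and core 3 from chr16:16508051-16508350, in an intron of Fgd4. Core 4 (chr13:22121551-22121850) and core 5 (chr1:94772601-94772900) were intergenic.
core 1: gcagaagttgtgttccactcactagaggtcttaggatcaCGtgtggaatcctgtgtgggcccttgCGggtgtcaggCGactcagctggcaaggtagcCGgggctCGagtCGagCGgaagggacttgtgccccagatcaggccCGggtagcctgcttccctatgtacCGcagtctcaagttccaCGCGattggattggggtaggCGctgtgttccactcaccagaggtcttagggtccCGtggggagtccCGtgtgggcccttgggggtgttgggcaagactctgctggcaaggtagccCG
core 2: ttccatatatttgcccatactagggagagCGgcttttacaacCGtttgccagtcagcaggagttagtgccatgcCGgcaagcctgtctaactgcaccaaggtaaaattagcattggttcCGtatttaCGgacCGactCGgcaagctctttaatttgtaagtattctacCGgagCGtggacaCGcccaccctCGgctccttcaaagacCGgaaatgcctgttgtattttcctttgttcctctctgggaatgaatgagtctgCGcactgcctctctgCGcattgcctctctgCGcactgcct
core 3: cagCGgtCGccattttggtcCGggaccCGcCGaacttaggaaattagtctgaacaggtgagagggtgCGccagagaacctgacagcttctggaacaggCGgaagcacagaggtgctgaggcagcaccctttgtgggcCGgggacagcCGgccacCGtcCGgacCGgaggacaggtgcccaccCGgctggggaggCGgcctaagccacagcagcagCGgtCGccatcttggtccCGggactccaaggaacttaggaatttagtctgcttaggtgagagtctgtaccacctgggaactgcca
core 4: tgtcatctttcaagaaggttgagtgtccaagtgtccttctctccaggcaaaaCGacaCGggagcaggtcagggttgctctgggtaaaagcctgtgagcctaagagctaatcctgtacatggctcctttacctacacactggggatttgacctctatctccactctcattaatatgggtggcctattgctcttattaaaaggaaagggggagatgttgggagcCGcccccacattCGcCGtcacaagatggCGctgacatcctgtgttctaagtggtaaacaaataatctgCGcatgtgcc
core 5: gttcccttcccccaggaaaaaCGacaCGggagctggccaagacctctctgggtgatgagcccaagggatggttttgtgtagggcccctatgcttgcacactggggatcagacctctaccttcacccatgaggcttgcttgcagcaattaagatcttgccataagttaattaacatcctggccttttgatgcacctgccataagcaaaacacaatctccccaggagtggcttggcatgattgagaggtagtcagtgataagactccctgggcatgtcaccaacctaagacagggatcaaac
Core 1 was held by 338 dual-change sites and had 6535 copies on the autosomes, core 2 by 248 with 1320 copies, core 3 by 239 with 4561 copies, core 4 by 108 with 1924 copies and core 5 by 82 with 760 copies. Of these 5 sequences, WT replicate 1 of H3.3 was lowest in core 2 (median 0.0, against 19.6 in WT replicate 2 and 47.8 and 48.3 in Daxx-KO), while core 1 had the most H3.3 (95.5 and 113 in Daxx-KO against 13.3 and 44.5). H3K9me3 was 27.9 and 25.0 in Daxx-KO against 61.7 and 67.6 in core 1, and 27.9 and 23.3 against 64.3 and 67.3 in core 2. The sequences differed in CpG content, with 15, 15 and 17 CpG in the 300 bp of cores 1, 2 and 3 against 7 in core 4 and 2 in core 5. No alignment joined any of cores 1, 2 and 3, whereas cores 4 and 5 aligned over 128 bp at 71.1% identity.

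At the other end, 339 dual-change sites (12.3%) held no repeated word, compared with 65.5% of the other H3.3 gains. The central 300 bp of 2 of them are shown for comparison: a site in an intron of Cdyl2 (chr8:116688976-116689275) with 6 CpG, which carried both changes at 24 w.p.i. as well, and a site in an intron of Slc38a4 (chr15:97054601-97054900) with 21 CpG, near a transcript start of an imprinted gene. The Slc38a4 sequence consists largely of a short unit that recurs with small changes, which the count of exact words does not register.
Cdyl2 site: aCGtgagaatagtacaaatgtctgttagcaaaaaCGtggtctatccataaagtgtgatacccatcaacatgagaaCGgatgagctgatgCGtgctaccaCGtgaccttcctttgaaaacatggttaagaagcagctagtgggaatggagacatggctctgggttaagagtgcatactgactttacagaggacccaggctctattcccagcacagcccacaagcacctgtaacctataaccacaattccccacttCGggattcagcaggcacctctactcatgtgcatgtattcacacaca
Slc38a4 site: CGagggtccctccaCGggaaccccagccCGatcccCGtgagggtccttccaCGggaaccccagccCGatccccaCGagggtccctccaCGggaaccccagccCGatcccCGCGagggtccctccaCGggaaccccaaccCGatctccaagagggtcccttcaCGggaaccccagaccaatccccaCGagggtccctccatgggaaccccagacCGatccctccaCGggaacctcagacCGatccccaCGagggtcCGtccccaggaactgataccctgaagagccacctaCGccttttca

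One WT library stood apart in the repeated sequence. WT replicate 1 of H3.3 was listed at 0 in 540 dual-change sites, and all 540 were among the 2058 sites with 50% or more repeated words (26.2% of them), while none was among the 698 other sites. WT replicate 2 was at 0 in 52 of the 2058. In the repeated sites, the median was 6.31 normalized counts in WT replicate 1 and 23.6 in WT replicate 2, against 61.6 and 66.3 in the Daxx-KO replicates. In the 698 other sites, the medians were 33.7 and 19.6 in WT and 74.2 and 72.2 in Daxx-KO, so the order of the WT replicates was turned. WT replicate 1 of Pu.1 was low as well and was at 0 in 266 of 1417 repeated sites with a listed Pu.1 site, compared with 30 for the other replicate. WT replicate 1 was the deepest of the H3.3 libraries (22.88 reads per window on average) and WT replicate 2 the shallowest (3.06), with 9.43 and 11.27 in the Daxx-KO libraries. H3K9me3 libraries had 1.21–3.00 reads per window. Whether WT replicate 1 contributed to the share of repeats was not tested. Leaving it, or any other 3 w.p.i. library, out of the direction rule gave between 2756 and 2784 sites. Within the fixed list of sites, leaving out a library can only add sites, so these counts cannot answer that question. The authors' test that listed the sites used both WT libraries and cannot be redone from the deposited values. The median log2 ratio of H3.3 over all dual-change sites was 2.68 against WT replicate 1 alone and 1.46 against WT replicate 2 alone.

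**Figure D1:**
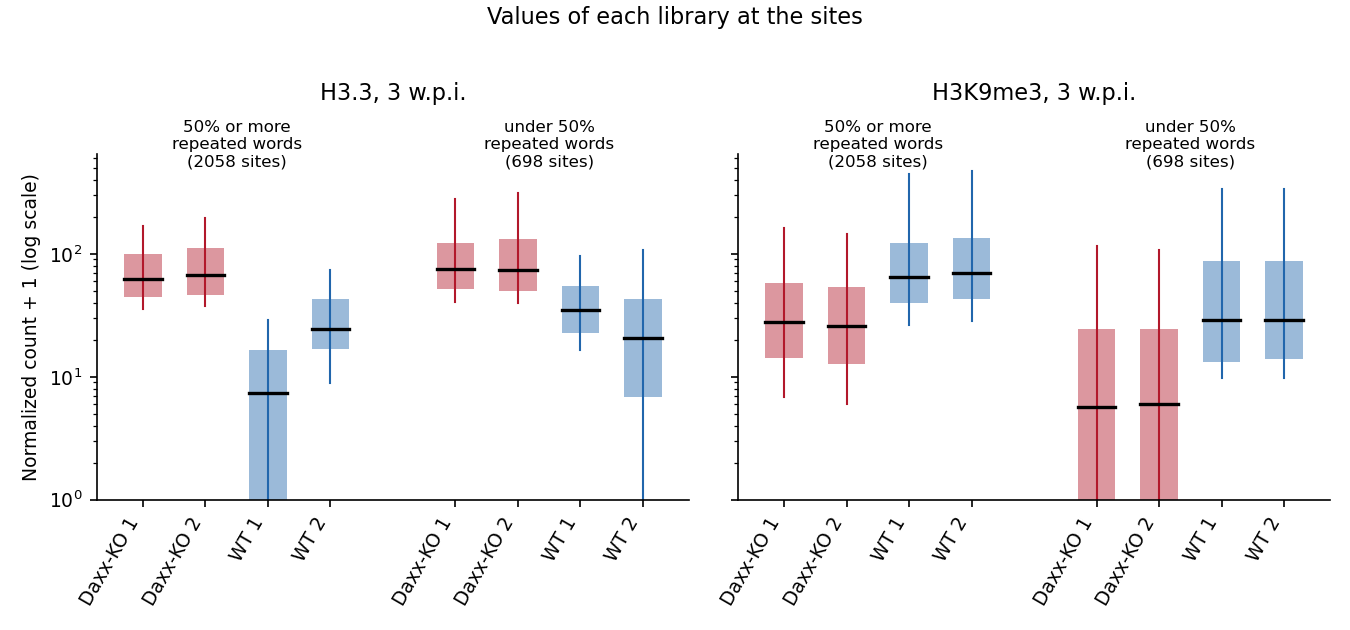
Normalized counts plus 1 (log axis) of each 3 w.p.i. library at the dual-change sites for H3.3 (left) and H3K9me3 (right), split by the share of repeated 50-base words (2058 and 698 sites). Boxes span the 25th to 75th percentile over sites, black bars are medians and lines reach from the 10th to the 90th percentile. WT replicate 1 of H3.3 had a median of 6.31 in the repeated sites and 33.7 in the others.

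Over all 2756 sites, the median H3.3 value was 64.0 and 67.8 in the mutant libraries, compared with 11.9 and 23.6 in WT. For H3K9me3, the medians were 22.1 and 20.0 in the mutant, compared with 56.9 and 60.3 in WT. The median log2 ratio of group means (Daxx-KO over WT, 1 added to each mean) was 1.85 for H3.3, with quartiles of 1.48 and 2.29, beside 1.56 over all H3.3 gains. For H3K9me3 it was −1.54, with quartiles of −2.10 and −1.23, beside −2.01 over all H3K9me3 losses. The H3K9me3 mark was thus reduced but often still counted, although the Daxx-KO libraries were at 0 in 225 and 237 of the 698 less repeated sites. At the edge of the rule, the 3 sites just inside were separated by 0.56, 0.58 and 0.59 normalized counts of H3.3, and the 3 just outside failed by 0.02, 0.81 and 1.29. Only 54 of the 3246 H3.3 sites on an H3K9me3 loss had overlapping groups, and 436 were H3.3 losses. At the H3.3 sites that met an H3K9me3 gain, 876 gained and 1302 lost H3.3. A further 29 of the dual-change sites also touched a second H3K9me3 site that gained the mark.

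The dual-change sites were rich in repeats and in CpG. Soft-masked bases, which mark repeats in the reference sequence, covered 50% or more of 1897 sites (68.8%, 67.1 to 70.5), compared with 18.3% (18.1 to 18.6) of the other H3.3 gains and 52% (51 to 53) of the other H3K9me3 losses. The median site held 3.33 CpG per 100 bp, against 1.38 in the other H3.3 gains and 1.17 in the other H3K9me3 losses. GC content differed less, with medians of 52.9%, 50.7% and 46.4%. The CpG density was higher in the repeated sites (median 3.67) than in sites with no repeated word (1.73). The sites had a median length of 950 bp, covered 2980 kb in all and were found on all 19 autosomes, from 50 on chromosome 19 to 231 on chromosome 4. Relative to length, chromosome 7 held the most (15.5 per 10 Mb) and chromosome 19 the fewest (8.14). A neighbour of the set lay within 1 kb of 433 sites (15.7%), within 10 kb of 879 (31.9%) and within 100 kb of 1330 (48.3%), so sites are not independent observations.

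**Figure D2:**
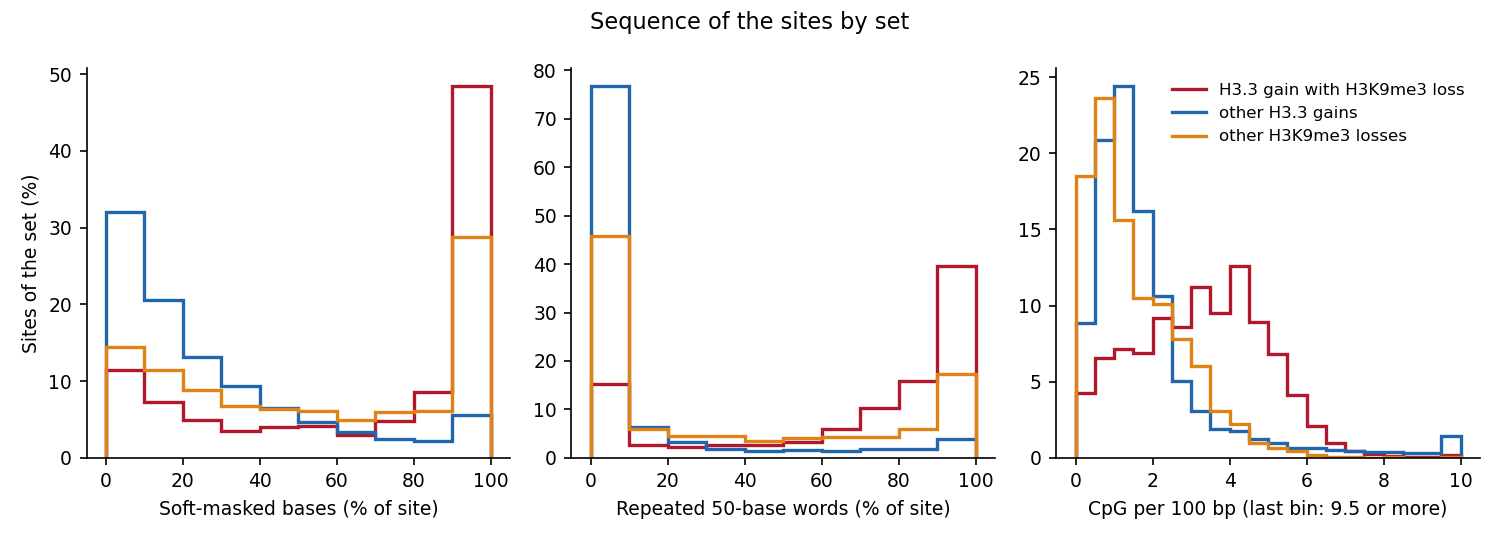
Share of sites (%) by soft-masked bases, by repeated 50-base words and by CpG per 100 bp, for the 2756 dual-change sites, the 78956 other H3.3 gains and the 9420 other H3K9me3 losses at 3 w.p.i. (lines, 1 per set). The dual-change sites peak at the masked and repeated ends of the first 2 axes and at higher CpG density.

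The letters GAGGAAGT, the core of a Pu.1 binding motif, occurred on either strand of the central 300 bp in 34 dual-change sites (1.23%, 0.884 to 1.72), against 1.88% (1.78 to 1.97) of the other H3.3 gains and 2.04% of all H3.3 sites listed. Pu.1 signal itself was nonetheless listed at many of the same places. Of the dual-change sites, 1754 overlapped a listed Pu.1 site at 3 w.p.i., with median values of 100 and 96.5 in Daxx-KO against 14.6 and 38.4 in WT. Among the 1726 with a change in 1 direction, 1683 gained Pu.1 (97.5%, 96.7 to 98.1) and 43 lost it. In the Pu.1 comparison as a whole, 55.2% of the separated sites were gains, and at the other H3.3 gains the share was 83.9% (83.5 to 84.3). The share depended on sequence. It was 99.6% in the sites with 50% or more repeated words and 79.1% (71.5 to 85.1) in the sites without a repeated word. These libraries share at least 3 mice with H3.3, and their WT replicate 1 was likewise low in repeats. The part of the shared animals in the Pu.1 gains was not tested. H3K27ac, the mark of active enhancers and promoters, was listed at 171 sites, where 78 gained and 84 lost it (48.1% gains, 40.6 to 55.8), beside 40.2% gains in the whole H3K27ac table, 30.7% at the other H3.3 gains and 55.5% at the other H3K9me3 losses.

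The genomic places were mostly away from genes. In GENCODE vM21, 1644 sites (59.7%) were intergenic, 738 (26.8%) intronic and 374 (13.6%) touched an exon. Only 278 (10.1%, 9.02 to 11.3) lay within 1 kb of any transcript start, against 20.5% of the other H3.3 gains and 6.53% of the other H3K9me3 losses. This share was higher in less repeated sites, at 20.8% in the 859 sites masked under 50%, 17.7% in the 339 without a repeated word and 16% in the 1476 without a core. It was 17.7% with a 3 kb distance and 6.49% with 250 bp. A protein-coding transcript start was within 1 kb of 90 sites (3.27%), compared with 16.2% of the other H3.3 gains, and for 44 of the 90 this was the 5′ end of the gene itself rather than an internal start. Of these 90 sites, 45 had no repeated word and 20 were masked over 50% or more.

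By distance from the middle of a site, 1771 of 20780 protein-coding genes (8.52%) were nearest to at least 1 dual-change site. The median distance was 43992 bp, and 954 sites were more than 100 kb from the nearest start. The genes nearest to most sites lay beside arrays of repeats. Gm38393, a predicted gene, was nearest to 27 sites over 202 kb of chromosome 7, all with 50% or more repeated words. Gm10330 had 19 sites, Gm21863 18, 5730507C01Rik 12 and Ywhaq 11, and all of these genes lie on chromosome 12. Gpm6a, which encodes a neuronal membrane glycoprotein, had 14 sites, and Ezh2, the H3K27 methyltransferase, had 10 within 24.6 kb, 60834 to 84259 bp from its start. Cpeb2, Olfr161 and Zfp991 had 9 each. All H3.3 gains nearest to a gene, dual-change sites included, numbered 70 for Gm38393, 102 for Gm10330 and 85 for Gm21863. They numbered 68 for 5730507C01Rik, 85 for Ywhaq, 30 for Olfr161, 20 each for Gpm6a and Ezh2, 18 for Zfp991 and 15 for Cpeb2.

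The arrays differed in level. Beside Gpm6a, the median H3.3 value was 428 and 482 in Daxx-KO against 36.1 and 259 in WT, and H3K9me3 was 238 and 140 against 313 and 336. Beside Ezh2, H3.3 was 269 and 287 in Daxx-KO against 0.0 and 166 in WT, and H3K9me3 was low in every library (3.49 and 0.0 against 16.6 and 17.7). Beside Cpeb2, a regulator of mRNA translation, H3K9me3 was high, at 201 and 187 in Daxx-KO against 786 and 889 in WT. In the Gpm6a and Ezh2 arrays WT replicate 1 was far below WT replicate 2 in H3.3, as in the other repeated sites. At 24 w.p.i., 11 of the 14 sites beside Gpm6a and 11 of the 19 beside Gm10330 had gained H3K9me3, whereas 5 of the 9 beside Cpeb2 and 5 of the 9 beside Zfp991 had lost it.

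In the list of haematopoietic stem-cell and myeloid transcription factors, 7 of 33 genes (21.2%, 10.7 to 37.8, beside 8.52% of all protein-coding genes) were nearest to a site. By sites the list was not favoured, with 0.29% of the dual-change sites against 0.54% of the other H3.3 gains. The genes were Runx1, Runx2, Meis1, Mecom, Myc and Zfpm1 with 1 site each and Erg with 2. Most of these sites were remote, at 60201 bp from Runx1, 125188 bp from Mecom, 147566 bp from Myc, 199677 bp from Meis1 and 295253 bp from Runx2, and the closest were 14878 bp from Erg and 2544 bp from a start of Zfpm1. None of 20 neutrophil and myeloid effector genes, 20 B-lineage genes, 27 nucleic-acid sensing and interferon genes, 23 inflammatory genes or 2 gluconeogenesis genes was nearest to a site, and with lists this short the upper bounds of these shares (12.5% to 65.8%) lie above the 8.52% of all genes. Of 18 T- and NK-lineage genes only Bcl11b was, and of 15 erythroid and megakaryocyte genes only Ank1, the erythrocyte ankyrin. Among 32 genes of H3.3, its chaperones and H3K9 methylation, 3 were, namely Hira, Atf7ip and Kdm4a.

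Zinc-finger genes of the Zfp symbol family, many of which encode proteins that bind retroviral repeats, were nearest to 126 dual-change sites (4.57%), against 1.51% of the other H3.3 gains. They numbered 66 of 388 genes (17%, 13.6 to 21.1), beside the 8.52% of all protein-coding genes. Olfactory receptor genes (Olfr) were nearest to 56 sites (2.03%, against 0.541% of the other H3.3 gains). Vomeronasal receptor genes (Vmn) were nearest to 34 sites (1.23%, against 0.361%). A higher share by sites was thus not particular to Zfp genes. By genes, 41 of 1127 Olfr genes (3.64%, 2.69 to 4.9) and 26 of 328 Vmn genes (7.93%, 5.47 to 11.4) were nearest to a site. Neither of these shares exceeded the 8.52% of all protein-coding genes. Clustered protocadherins were matched by symbol as Pcdha, Pcdhb and Pcdhgc genes, which leaves out the Pcdhga and Pcdhgb genes. Of those matched, 7 of 38 genes were nearest to a site. Counts were 2 of 39 Hox genes, 1 of 66 replication-dependent histone genes, 34 of 372 Slc genes and 11 of 92 Kcn genes. By sites, the matched protocadherins held 0.254% (against 0.0342% of the other H3.3 gains), histone genes 0.109% (0.0215%) and Hox genes 0.0726% (0.0646%). Slc genes (1.63% against 2.04%) and Kcn genes (0.472% against 0.773%) had lower shares than at the other H3.3 gains. No gene list was compared with the other H3K9me3 losses. Of the Olfr sites 55 of 56 were masked over 50% or more, compared with 61 of the 126 Zfp sites.

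The 8 sites with the largest combined change, the smaller of both log2 changes, were led by an exonic site of 750 bp nearest to Zfp74 (chr7:29929951-29930700). This site lay outside Zfp74, 12805 bp from its nearest transcript start, so the exon is of another annotated gene. H3.3 was 50.54 and 39.79 there in Daxx-KO against 0.70 and 0.0 in WT, and H3K9me3 over the surrounding 11 kb site was 25.58 and 28.33 against 518 and 521. The groups were far apart for both marks, and H3K9me3 was again lower at 8 w.p.i. (40.68, 25.75 and 50.8 in Daxx-KO against 216, 143 and 247 in WT) and at 24 w.p.i. (131 and 191 against 605 and 625). The longest was a 9950-bp site over the body of Ahnak2, a large scaffold protein gene (chr12:112775551-112785500), with 81.4% repeated words but only 6.16% masked bases. H3.3 was 1522 and 1662 there in Daxx-KO against 67.31 and 233 in WT, and H3K9me3 was 69.77 and 117 against 1789 and 1950. Both changes were also seen at 24 w.p.i. in shorter stretches of Ahnak2, with H3.3 at 284 and 151 against 49.81 and 70.51, and H3K9me3 at 147 and 155 against 193 and 321. These stretches did not overlap each other, at 112778151-112780500 for H3.3 and 112775051-112775950 for H3K9me3.

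The other 6 of these sites had low H3K9me3 counts, so their ratios rest on few reads. Sites nearest to H60b, a ligand of the NKG2D receptor, Llgl1, a cell polarity gene, Nedd4l, a ubiquitin ligase, and Hcar2, a receptor for niacin, were at 0 for H3K9me3 in both Daxx-KO libraries and between 8.12 and 13.92 in WT. At Nedd4l (chr18:65103451-65104650), H3.3 was 696 and 796 in Daxx-KO against 114 and 62.86 in WT, no word was repeated, and H3K9me3 was lower again at 24 w.p.i. (14.03 and 2.08 against 162 and 49.66). At the site near Hcar2, 9049 bp from the gene's 5′ end, H3.3 was 294 and 277 against 46.98 and 20.95. H3K27ac rose beside this site at 3 w.p.i. (24.22 and 27.18 against 3.22 and 5.52). The sites nearest to Ulk4 and 4921507P07Rik consisted almost wholly of repeated words (97.2% and 100%). At Ulk4, H3.3 was 182 and 285 against 8.41 and 36.67 at 3 w.p.i. and, in a site that overlapped its last 50 bp, 6.62 and 0.0 against 185 and 144 at 24 w.p.i.

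Promoter sites of genes in the lists numbered 10, each within 1 kb of a protein-coding transcript start, which need not be the 5′ end of the gene. The sites at Zfp579, Zfp865 and Zfp513 lay 1808, 8975 and 1353 bp from the gene's 5′ end and met the definition through internal starts. At Zfp579, 1200 bp without repeated words (chr7:4993151-4994350) carried H3.3 of 88.44 and 131 in Daxx-KO against 33.66 and 10.48 in WT, with H3K9me3 of 1.16 and 1.67 against 14.0 and 12.76. At Zfp865, H3.3 was 265 and 331 against 87.64 and 65.48, and H3K9me3 was 8.14 and 20.0 against 67.38 and 72.47. At Zfp513, H3.3 was 115 and 95.8 against 55.39 and 0.0, and H3K9me3 was 6.98 and 0.0 against 58.63 and 18.55. At each of these the groups were apart, although WT replicate 2 was much the lower at Zfp579 and Zfp513.

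Zfpm1 encodes the Gata1 cofactor Fog1. Its site (chr8:122335451-122338900) touched the last part of the gene, 53310 bp from the gene's 5′ end, and met the promoter definition through an internal transcript start. H3.3 was 475 and 412 in Daxx-KO against 158 and 139 in WT, and H3K9me3 was 0.0 and 3.33 against 19.25 and 21.45. By 24 w.p.i., H3.3 was still higher (101.57 and 123.37 against 31.36 and 18.8), while H3K9me3 was higher rather than lower (286 and 117 against 94.82 and 107). At Slc38a4, an amino acid transporter gene whose central sequence is printed above, H3.3 was 155 and 78.11 against 37.86 and 44.53, and H3K9me3 was 23.26 and 43.33 against 117 and 151. H3K27ac at this site was 96.66 and 111 against 23.46 and 15.03 at 24 w.p.i. The remaining sites were near Hist1h4m, Zfp59, Zfp872, Zfp993 and Slc25a2, with log2 ratios of 1.22 to 3.38 for H3.3 and −3.98 to −1.0 for H3K9me3. Those near Zfp59 and Zfp993 lay 3244 and 42590 bp from the gene's 5′ end.

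At 8 w.p.i., in other mice, the loss of H3K9me3 was seen again at part of the sites. A listed H3K9me3 site overlapped 603 dual-change sites, with medians of 28.9, 26.7 and 21.4 in the 3 Daxx-KO libraries against 54.5, 45.5 and 51.2 in WT. Among the 560 with a change in 1 direction, 449 lost H3K9me3 (80.2%, 76.7 to 83.3) and 111 gained it. Losses were 35.3% of the whole 8 w.p.i. table, 26.9% (24.9 to 28.9) at the other H3.3 gains and 77.6% (75.9 to 79.3) at the other H3K9me3 losses. The share therefore stood well above the other H3.3 gains and within counting error of the other H3K9me3 losses.

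In DKO against WT at 8 w.p.i., 986 dual-change sites were listed and the loss was almost uniform, with 820 losses and 37 gains of H3K9me3 (95.7% losses, 94.1 to 96.9, beside 27.2% in the table). Losses were 51.7% (49.0 to 54.3) at the other H3.3 gains and 85.2% (83.5 to 86.8) at the other H3K9me3 losses. At the dual-change sites, medians were 16.2, 17.3 and 14.6 in DKO against 60.4, 36.7 and 43.7 in WT. Of the DKO losses, 522 had no listed site in the Daxx-KO comparison and 271 were losses in both. DKO against Daxx-KO gave 498 losses and 57 gains (89.7% losses, 86.9 to 92.0, beside 35.6%), so H3K9me3 was lower in DKO than in Daxx-KO at most of the 555 sites with a separated change, while the other sites of the 2756 cannot be judged. Losses also prevailed at the other H3.3 gains (67.6%, 65.0 to 70.0) and at the other H3K9me3 losses (66.8%, 63.7 to 69.8). DKO libraries had 0.20–3.29 reads per window, both DKO comparisons share them, and the WT libraries are those of the Daxx-KO comparison. H3K27me3, the Polycomb mark, was listed at few of the dual-change sites, with 60 gains and 25 losses in DKO against WT (70.6% gains, 60.2 to 79.2, beside 52.4%) and 25 gains and 14 losses in DKO against Daxx-KO (64.1% gains, beside 65.9%). In the same order, gains were 56.1% and 64.1% at the other H3.3 gains and 58.3% and 64.0% at the other H3K9me3 losses.

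At 24 w.p.i., the fates of H3.3 and H3K9me3 parted. H3.3 was listed at 800 of the sites, with medians of 42 and 43 in Daxx-KO against 39.7 and 38.1 in WT. There were 391 gains and 329 losses (54.3% gains, 50.7 to 57.9), close to the 52.2% gains of the whole table and the 51.5% (50.8 to 52.1) of the other H3.3 gains. H3K9me3 was listed at 1221 sites, with medians of 134 and 135 in Daxx-KO against 180 and 188 in WT. There were 802 losses and 355 gains (69.3% losses, 66.6 to 71.9), beside 51.8% in the table, 32.3% (31.6 to 33.1) at the other H3.3 gains and 76.9% (75.4 to 78.3) at the other H3K9me3 losses. A loss at all of 3, 8 and 24 w.p.i. was found at 284 sites (10.3%).

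Both changes were kept at 110 sites (3.99%, 3.32 to 4.79), compared with 0.883% (0.82 to 0.95) for the same 24 w.p.i. combination at the other H3.3 gains and 2.91% (2.59 to 3.27) at the other H3K9me3 losses. The share rose to 6.17% in sites masked under 50%, 7.37% in sites without a repeated word and 7.69% when sites within 1 kb were counted. Both opposite changes were present at 68 sites (2.47%, 1.95 to 3.12), beside 2.12% at the other H3.3 gains and 0.998% at the other H3K9me3 losses. Both marks were lost at 96 sites (3.48%, beside 0.912% and 2.31%) and both were gained at 57 (2.07%, beside 2.21% and 1.08%). The shares with opposite changes and with both gains were thus near those of the other H3.3 gains. For these combined counts, the 24 w.p.i. site of each mark shared 1 bp or more with the dual-change site. The sites of the 2 marks need not overlap each other. At 1137 sites (41.3%) neither mark was listed at 24 w.p.i.

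**Figure D3:**
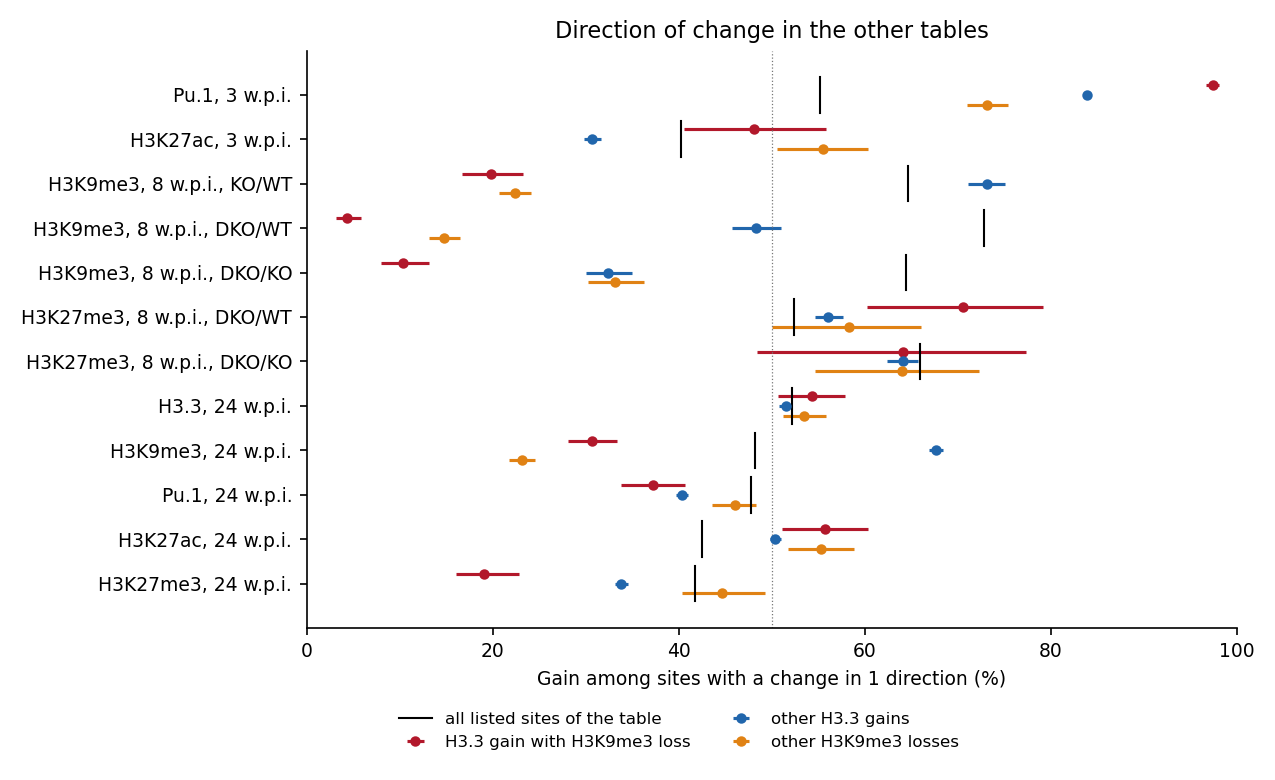
Share of gains (%) among sites with a change in 1 direction, for each comparison outside the rule. Points are the dual-change sites, the other H3.3 gains and the other H3K9me3 losses with 95% Wilson intervals (counting error only), and black ticks are all separated sites of that table. The dual-change sites lie at 97.5% for Pu.1 at 3 w.p.i. and near the tick for H3.3 at 24 w.p.i.

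The other marks at 24 w.p.i. changed as follows. Pu.1 was listed at 866 sites with 286 gains and 483 losses (62.8% losses, 59.3 to 66.2), beside 52.2% losses in the table and 59.7% at the other H3.3 gains, so the direction of 3 w.p.i. was not maintained. H3K27ac had 248 gains and 197 losses (55.7% gains, 51.1 to 60.3), beside 42.5% gains in the table. The share of H3K27ac gains was 50.4% at the other H3.3 gains and 55.3% (51.8 to 58.8) at the other H3K9me3 losses. The dual-change sites were thus near the other H3K9me3 losses in this mark. H3K27me3 had 418 losses and 99 gains (80.9% losses, 77.2 to 84.0), beside 58.2% in the table, 66.2% (65.5 to 66.8) at the other H3.3 gains and 55.3% (50.7 to 59.7) at the other H3K9me3 losses. Its medians were 30.3 and 37.7 in Daxx-KO against 81.2 and 65.7 in WT. The share of H3K27me3 losses depended on sequence and was 88.8% in sites with 50% or more repeated words. It was 65.6% (55.3 to 74.6) in sites without a repeated word and 68.9% (63.4 to 74.0) in sites without a core. Both of these were near the 66.2% of the other H3.3 gains.

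The repeated sequences differed in their later course. Among dual-change sites with core 1 or core 3, H3K9me3 at 24 w.p.i. was gained at 98 and lost at 42 (68 and 20 for core 1, 30 and 22 for core 3), and H3K27me3 was lost at all 186 sites with a separated change. Among sites with core 2 or core 4, H3K9me3 was lost at 138 and gained at 1 at 24 w.p.i., and lost at 92 and gained at 1 at 8 w.p.i. In the 1476 sites without a core, H3K9me3 losses at 24 w.p.i. numbered 514 against 221 gains. Copies of a core resemble each other closely, so reads cannot always be assigned to 1 copy, and how the alignment treated such reads is not given in the sources used here. The counts are thus given without intervals.

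Counted over all copies in the genome, the same division was seen. Since reads cannot always be assigned to 1 copy, the copies are not separate observations at any of the times. Copies can also adjoin or overlap in part, and 1 listed site that spans several of them is counted for each. Cores 1 and 3 each hold a stretch that recurs within their 300 bp with small changes. The copies include the dual-change sites from which the sequences were taken, so their values of H3.3 and H3K9me3 at 3 w.p.i. draw on the selecting values and are a description only. Of the 6535 copies of core 1, H3K9me3 was lost at 1279 and gained at 37 at 3 w.p.i. but gained at 949 and lost at 219 at 24 w.p.i. (81.2% gains). Core 3 had 882 losses and 11 gains at 3 w.p.i. and 395 gains and 114 losses at 24 w.p.i. (77.6% gains). At 8 w.p.i., gains already prevailed in Daxx-KO against WT, at 240 against 51 copies of core 1 and 89 against 24 of core 3, whereas in DKO against WT losses prevailed, at 717 against 70 and 459 against 37. Among copies with a separated change at 24 w.p.i., H3K27me3 was lost at 1659 of 1667 for core 1 and 467 of 468 for core 3.

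The counts that follow are likewise out of the copies with a separated change, which were a part of all copies (589 of the 1320 of core 2 at 3 w.p.i.). For core 2, H3K9me3 was lost at 588 of 589 at 3 w.p.i., 124 of 126 at 8 w.p.i. and 273 of 283 at 24 w.p.i. For core 4, it was lost at 382 of 385, 349 of 366 and 430 of 455. Copies of these 2 sequences also gained H3K27ac at 24 w.p.i., at 96 of 102 for core 2 and 96 of 116 for core 4, while core 1 had 191 gains and 215 losses, core 3 98 and 45, and core 5 14 and 17. Among the dual-change sites alone, H3K27ac had 19 gains and 3 losses for core 2 but 4 gains and 5 losses for core 4. Core 5 had 154 losses and 18 gains of H3K9me3 at 24 w.p.i. H3.3 at 24 w.p.i. was divided in every one of the 5, with gains at 44.6% to 59.4% of copies with a separated change.

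**Figure D4:**
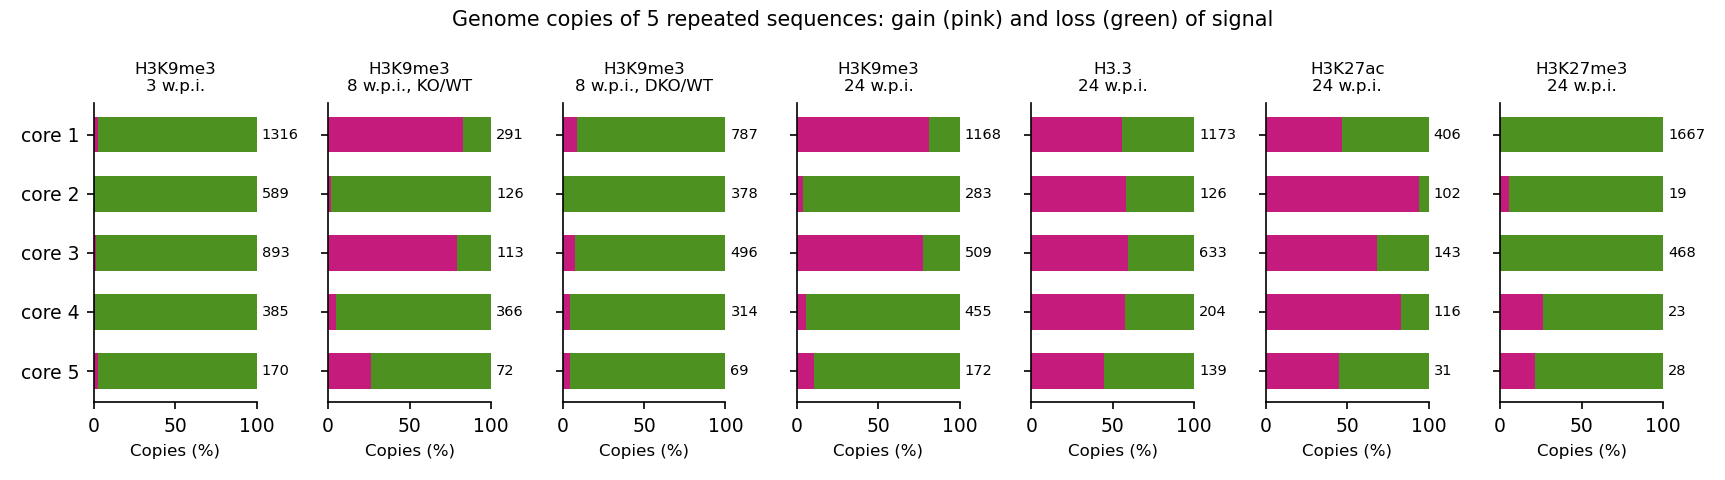
Share of genome copies (%) of cores 1 to 5 that gained (pink) or lost (green) signal, among copies with a change in 1 direction (their number at the right of each bar), by comparison. For H3K9me3 at 24 w.p.i., 81.2% and 77.6% were gains for cores 1 and 3, while losses prevailed for cores 2, 4 and 5; the 3 w.p.i. panel draws on the values that chose the sites.

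Individual sites show both outcomes. The 6 sites that kept both changes with the largest changes at 24 w.p.i., which is how they were selected, included 5 without a repeated word. At the Cdyl2 site, in an intron of a gene for a chromodomain protein (chr8:116688751-116689500), H3.3 was 37.9 and 74.43 in Daxx-KO against 21.74 and 26.19 in WT at 3 w.p.i. and 55.2 and 172 against 10.15 and 16.92 at 24 w.p.i. H3K9me3 was 15.12 and 13.33 against 320 and 351 at 3 w.p.i. At 8 w.p.i. it was 25.31, 20.23 and 66.84 in the Daxx-KO libraries against 463, 423 and 382 in WT, and at 24 w.p.i. it was 3.83 and 29.18 against 122.8 and 170. In no case did the groups overlap at this site. In DKO at 8 w.p.i., it was 26.07 or lower in all 3 libraries.

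The related gene Cdyl also held such a site in an intron (chr13:35756401-35757750), with H3.3 at 141 and 113 against 53.99 and 20.95 at 3 w.p.i. and 79.49 and 28.3 against 15.68 and 3.76 at 24 w.p.i. At 24 w.p.i., the H3.3 gain (35757351-35757950) and the H3K9me3 loss (35756501-35757200) overlapped different parts of the Cdyl site and not each other. The site nearest to Chst12, a sulfotransferase gene, had H3K9me3 at 0.0 and 3.33 against 36.75 and 22.61 at 3 w.p.i. and 1.91 and 14.59 against 83.94 and 39.36 at 24 w.p.i. Beside Inpp4a, a phosphoinositide phosphatase gene, WT replicates of H3.3 were 61.0 and 0.0 at 3 w.p.i., so that Daxx-KO (61.59 and 72.22) exceeded the first by only 0.59. In Ctse, the gene for cathepsin E (chr1:131642151-131643050), 90.6% of the bases were masked, H3K9me3 was 193 and 188 against 965 and 1121 at 3 w.p.i. and 41.44 and 35.44 against 193 and 189 at 24 w.p.i., and H3K27ac was gained at both times. At Zfp646, H3K9me3 was lower at 3 w.p.i. (4.65 and 6.67 against 60.38 and 48.12), higher at 8 w.p.i. and lower at 24 w.p.i. (51 and 44.82 against 127 and 181).

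Of the 68 sites with both opposite changes, the 4 with the largest combined change at 24 w.p.i. were nearest to Emid1, Nrbp2, Raet1d and Fcgr3. Near Nrbp2, a pseudokinase gene 12474 bp away, H3.3 was 668 and 824 against 37.16 and 210 at 3 w.p.i. and 2.21 and 5.66 against 35.05 and 62.99 at 24 w.p.i. H3K9me3 near Nrbp2 was 13.95 and 15.0 against 47.25 and 49.28 and then 52.28 and 40.65 against 7.77 and 12.18. Near Fcgr3, which encodes an Fc receptor for IgG, H3.3 was 214 and 223 against 21.74 and 170 and then 59.62 and 31.69 against 115 and 219. Near Raet1d, an NKG2D ligand gene 108881 bp away, H3.3 was 298 and 342 against 132 and 178 and then 2.21 and 1.1 against 71.95 and 32.9. At Emid1, H3K9me3 was 0 in both Daxx-KO libraries and 8.75 and 8.70 in WT at 3 w.p.i., and 21.68 and 58.37 against 9.33 and 0.0 at 24 w.p.i. A comparison between times involves different mice in every group and, at these 4 places, stretches that overlap the site only in part.

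**Figure D5:**
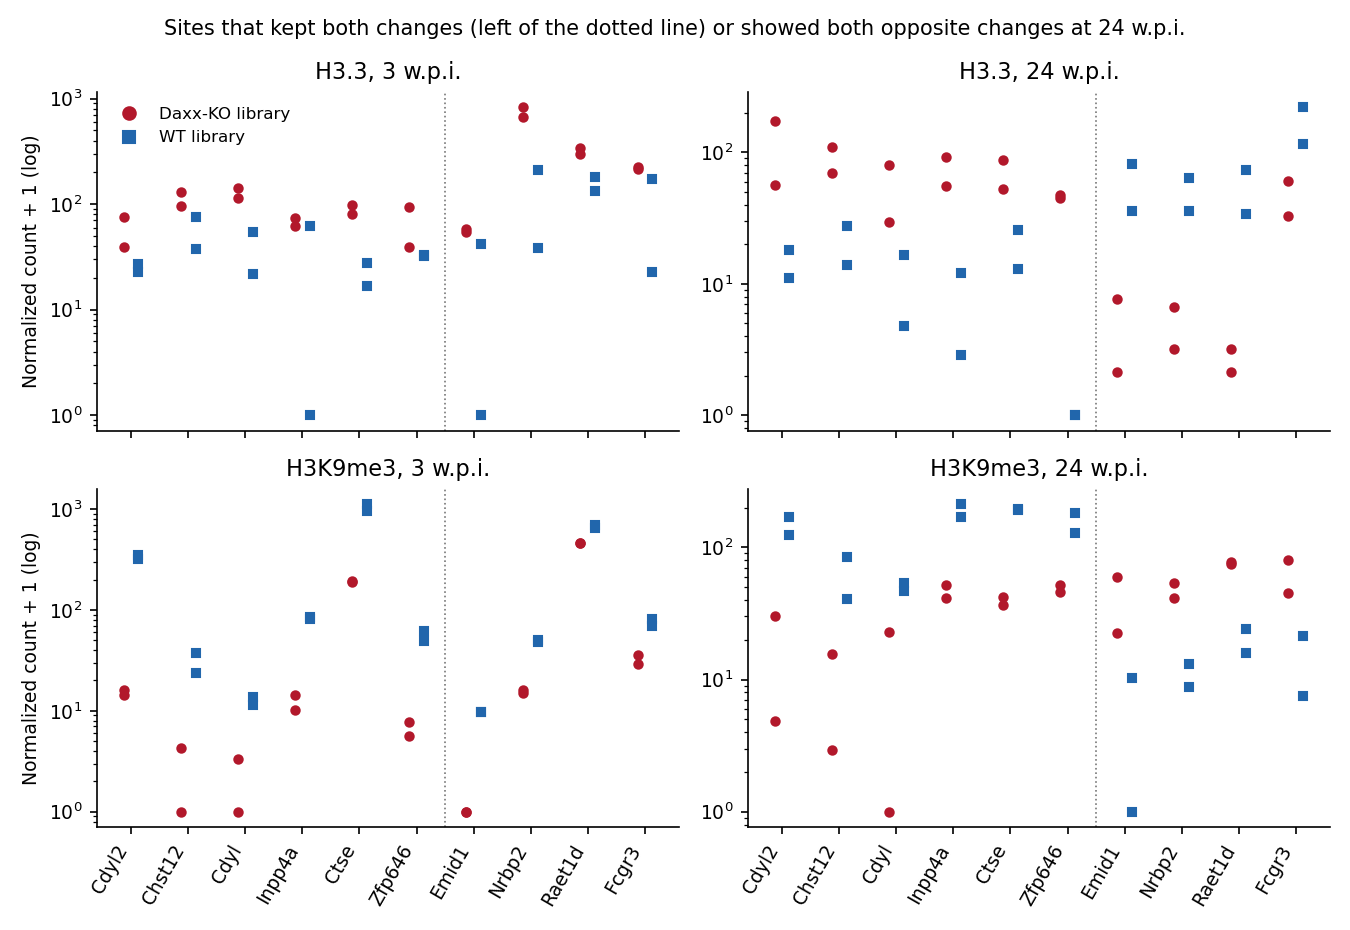
Normalized counts plus 1 (log axes) of each Daxx-KO (circles) and WT (squares) library at the 6 and 4 sites with the largest combined change at 24 w.p.i. among those that kept both changes and those with both opposite changes, with H3.3 in the upper and H3K9me3 in the lower panels, for both times. By selection, the groups separate one way at the first 6 and the other way at the last 4 at 24 w.p.i.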

How the data were processed

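CUT&Tag for H3.3, H3K9me3, H3K27ac, H3K27me3 and Pu.1 was done by the authors with paired-end sequencing. Per the labels, CASAVA 1.8.4, cutadapt 1.13, STAR 2.5.3 and bedtools were used and the genome build was mm10; the treatment of reads with several alignments is not given in the sources used here. The deposited tables list sites found by the authors with diffReps 1.55.6 in 600-bp windows at 50-bp steps, with 100-bp fragments and a window p-value cutoff of 0.0001. The deposited tables hold, besides each library's value, the mean signal of each group, made by the authors from the same counts and used only to check them. The value used is the deposited normalized count of each library (reads over the site divided by a normalization constant), and the authors' fold changes, p-values and annotations were not used. The mean reads per window of each library, which limit precision, come from the file headers.

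Sites with all Daxx-KO (or DKO) values above, or below, all control values were called gains or losses; log2 ratios are of group means with a pseudocount of 1. Overlap was 1 bp. The 8 w.p.i. H3K27me3 comparison of Daxx-KO with WT was not used, since its header names H3K9me3 libraries as controls. Of 62 libraries, 54 enter the tables used here; the 8 DKO libraries at 24 w.p.i. were not used. Where the labels number the mice, replicates of a group are separate mice; WT replicate 1 of H3.3 and Pu.1 at 3 w.p.i. has no mouse number, and spread involving it may be technical. Sequence came from GRCm38.p6 (the autosomes of mm10), genes from GENCODE vM21, and alignments from BLAST 2.17.0. Intervals are 95% Wilson intervals and cover counting error only. Sites share animals, reads and neighbours, so no test over sites was run. Overlap, direction and word counts were tested on simulated data.

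The sites, gene lists and comparisons were chosen with earlier results of these data known. Sites were named by fixed rules: the 8 largest combined changes at 3 w.p.i. (at most 2 per gene), the 6 kept and 4 opposite sites with the largest combined change at 24 w.p.i., promoter sites of listed genes, and the 10 genes nearest to the most sites. Alternatives covered the overlap, a log2 minimum, repeats, promoter distance, neighbouring sites and each library left out.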

Additional observations from a re-analysis of the deposited data

Results flagged for a closer look

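The changes at 3 w.p.i. pointed the opposite way at a later time at part of the sites, in every library of both groups, and the difference between times was not tested. H3K9me3 was gained at 111 of the dual-change sites at 8 w.p.i. (19.8% of those with a change in 1 direction) and at 355 at 24 w.p.i. (30.7%). At the other H3.3 gains these shares were 73.1% and 67.7%, and at the other H3K9me3 losses 22.4% and 23.1%. H3.3 was lost at 329 at 24 w.p.i. (45.7%), near the 48.5% at the other H3.3 gains. The H3.3 count is thus not particular to the dual-change sites, and the H3K9me3 gains were a smaller share than at the other H3.3 gains. Over the genome copies with a separated change at 24 w.p.i., H3K9me3 was gained at 81.2% of core 1 and 77.6% of core 3, against losses of 97.2% and 98.8% at 3 w.p.i., which draw on the values that chose the sites. WT and Daxx-KO mice at the 2 times were different animals.

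Among named sites, each given by its nearest gene, log2 ratios of H3.3 at 24 w.p.i. were −5.26 at Ulk4, −4.32 at Raet1d, −3.60 at Emid1, −3.34 at Nrbp2, −2.08 at Zfp579, −1.85 at Fcgr3 and −1.34 at Zfp59. H3K9me3 ratios at 24 w.p.i. were 3.49 at Zfp59, 2.86 at Emid1, 2.12 at Fcgr3, 2.11 at Nrbp2, 1.92 at Raet1d, 0.99 at Zfpm1, 0.84 at Zfp579 and 0.49 at Zfp865. At 8 w.p.i. H3K9me3 had ratios of 2.60 at Zfpm1 and 2.09 at Zfp646. Emid1, Nrbp2, Raet1d and Fcgr3 were selected for this pattern.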

How the results depend on the processing

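Leaving out each library in turn gave 2756–2784 sites, 10.1–10.2% within 1 kb of a transcript start, 68.4–68.8% masked, 97.4–97.6% Pu.1 gains, 47–49.4% H3K27ac gains, 78.5–80.9% H3K9me3 losses at 8 w.p.i., 53.9–55.2% H3.3 gains and 68.9–69.4% H3K9me3 losses at 24 w.p.i., and 3.96–4.17% with both changes kept. These fits keep the authors' list of sites, which rests on all libraries. Leaving out a library can therefore only add dual-change sites and never remove one. An overlap of at least 50% gave 98.5% Pu.1 gains, 84.3% H3K9me3 losses at 8 w.p.i. and 2.68% with both kept. A log2 ratio of at least 1 gave 8.91% near a transcript start. Promoter distances of 3 kb and 250 bp gave 17.7% and 6.49%, and a masked share of 90% gave 48.4%. Counting sites within 1 kb gave 95.7% Pu.1 gains and 7.69% kept. In the 859 sites masked under 50% (0.0% masked by construction), values were 20.8% near a transcript start, 93.0% Pu.1 gains, 64.3% H3K9me3 losses at 24 w.p.i. and 6.17% kept. Chosen after seeing the data, sites without a repeated word (339) gave 17.7% near a start, 5.6% masked, 79.1% Pu.1 gains, 72.8% H3K9me3 losses at 8 w.p.i., 61.5% H3.3 gains at 24 w.p.i. and 7.37% kept, and sites without a core (1476) gave 16% near a start, 42% masked, 94.9% Pu.1 gains and 5.56% kept. The subsets hold fewer sites by construction, and the cause of the other shifts was not tested. The H3K27ac share moved by less than its interval in all 11 other settings. No paired analysis was possible because the results are counts of sites from no test, and replicates of Daxx-KO and WT within an antibody are different mice that share only a number. Places below the authors' cutoff are not listed, which limits every count of unlisted sites.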

Other observations

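Some promoter sites without repeated words lay at imprinted genes and at a germline gene. These genes were singled out after their values were seen, and their number was not tested. Imprinted genes are expressed from 1 parental allele, and H3K9me3 marks the silent, methylated allele of many of them. At an internal transcript start of Mest (chr6:30737501-30738700), H3.3 was 163 and 84.01 in Daxx-KO against 29.45 and 20.95 in WT, and H3K9me3 was 54.65 and 48.33 against 118 and 145. At 24 w.p.i., H3.3 there was 8.83 and 0.0 against 38.74 and 86.49 and H3K9me3 was 1084 and 941 against 479 and 839. At Peg10 (chr6:4746701-4747800), H3.3 was 120 and 93.59 against 35.06 and 44.53, and H3K9me3 was 0 in both Daxx-KO libraries against 14.88 and 11.02.

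At the 5′ end of the Gnas locus (chr2:174284751-174285400), H3.3 was 73.44 and 66.32 against 20.33 and 5.24, and H3K9me3 was 22.09 and 23.33 against 86.63 and 115. H3K9me3 was lower there at 24 w.p.i. as well (77.78 and 95.89 against 188 and 166), and 0 in all 3 DKO libraries at 8 w.p.i. against 13.48, 29.06 and 5.01 in WT. Grb10 and Mkrn3 held 1 such site each, with H3.3 log2 ratios of 1.72 and 1.32 and H3K9me3 log2 ratios of −2.28 and −2.67. The Grb10 site lay at an internal transcript start, 11833 bp from the gene's 5′ end. At the promoter of Dazl, a germ-cell RNA-binding protein gene (chr17:50293251-50294250), H3.3 was 82.91 and 98.01 against 66.61 and 15.72, and H3K9me3 was 0 in both Daxx-KO libraries against 15.75 and 45.22. Duxf3, a repeated homeobox gene of the early embryo with 73.3% repeated words, had H3.3 of 2070 and 2464 against 690 and 1299 and H3K9me3 of 1197 and 1002 against 3182 and 3359.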
